A study of Homo sapiens with 6 samples.

Results

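The genes described here are 10 regulators and markers of the epithelial-mesenchymal transition (EMT), chosen by name from 56303 gene symbols in the count table. They are the repressor genes ZEB1, ZEB2, SNAI1 and SNAI2, the mesenchymal genes VIM and FN1, and the epithelial transcription factor genes GRHL2, OVOL1, OVOL2 and KLF4. RNA-seq was performed on SW480 cells, an established line from a human colon adenocarcinoma, to find the transcripts and splicing events that depend on the splicing factor RBM39. The control cells (shCtrl) carried a lentiviral non-silencing hairpin and the depleted cells (shRBM39) a hairpin against RBM39, with 3 libraries in each group. Both were stable lines selected with puromycin and grown in the same medium, with no other allele or agent named. How many clones or hairpin sequences stand behind a group was not given in the sources used here, so a property of a line and an effect of the depletion cannot be told apart. Replicates are numbered in the labels, and p-values measure the spread between these libraries.

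EMT is the process in which cells of an epithelial sheet lose their junctions and gain motility. ZEB1, ZEB2, SNAI1 (Snail) and SNAI2 (Slug) are zinc finger repressors that bind E-box sequences in epithelial genes such as CDH1, which encodes E-cadherin. GRHL2, OVOL1, OVOL2 and KLF4 act on the epithelial side, and ZEB1 and the OVOL and GRHL factors are known to repress each other. Vimentin is an intermediate filament protein of mesenchymal cells, and fibronectin is a matrix glycoprotein bound by integrins.

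In RBM39-depleted cells the 10 genes did not move as a block. FN1 and KLF4 fell by over 2-fold, ZEB1 fell by 32.3%, and VIM rose by 24.2%. SNAI1 and SNAI2, the Snail and Slug genes, did not pass the test. OVOL2 rose by a small step that 9 of 17 alternative fits did not call. ZEB2, GRHL2 and OVOL1 were close to absent in both groups. Of the 7 genes with enough counts for the edgeR quasi-likelihood test, 2 were called higher, 3 lower and 2 neither, at a Benjamini-Hochberg adjusted p under 0.05 over 18243 genes. Across all genes tested, 59.2% were called, 29.2% higher and 30.0% lower, so the number of these genes called is not set apart from the rest of the transcriptome. In 5 of the 7 the groups did not overlap, against 63.3% of all genes tested.

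The targeted gene was checked first. RBM39 stood at 440.7, 447.1 and 434 counts scaled to library size with TMM factors (CPM) in shCtrl and at 265.6, 275.2 and 291.9 CPM in shRBM39. That is a fall of 37.0%, or -0.67 on the log2 scale (standard error, SE, 0.04, adjusted p 1.19e-16 in edgeR). The libraries held 18042924 to 20428901 counts, at which 3 counts, taken as the detection floor, equal 0.141 to 0.174 CPM. Of the 7 epithelial markers, KRT8, KRT18, KRT19, EPCAM and VIL1 stood at 561.5 CPM or more in every library, while CDX2, an intestinal transcription factor, was lower at 4.95 ± 0.53 against 21.7 ± 0.62 CPM (SD, n = 3). KRT20, a keratin of differentiated gut epithelium, was low in both groups and higher in shRBM39, at 1.12 ± 0.29 against 0.31 ± 0.21 CPM (SD, n = 3, adjusted p 8.38e-05 in edgeR).

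Among the repressors, ZEB1 was lower in every depleted library. ZEB1 (chromosome 10, 31318495 to 31529814, plus strand, GRCh38) had 33.8, 30.6 and 34.7 CPM in shCtrl and 21.3, 21.2 and 24.5 CPM in shRBM39. The highest depleted library lay below the lowest control. The log2 fold change was -0.56 (SE 0.06, 95% interval -0.69 to -0.43, adjusted p 2.53e-09 in edgeR). In bulk RNA, fewer cells with a transcript and less of it per cell cannot be told apart. Exons of ZEB1 share 366 bases with the antisense gene ZEB1-AS1, which fell as well, from 5.02 ± 0.42 to 3.77 ± 0.30 CPM (SD, n = 3, edgeR log2 fold change -0.41, adjusted p 0.00904). The strand setting of the counting is not given in the sources used here, so reads of the pair cannot be told apart, and the sum of both counts gave -0.54 (adjusted p 1.5e-09). ZEB1-AS1 was not called by DESeq2 or without shCtrl replicate 1 (-0.34).

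The promoter of ZEB1 is shown because the letters that ZEB and SNAI factors bind are present in it. RefSeq's promoter table (GRCh38.p14) lists 7 windows of 300 bases for ZEB1, and 2 of them hold the E-box CAGGTG or CACCTG, searched on both strands. The most upstream window has 1 such E-box, 57 bases before the start. Its 250 bases before the transcribed part are printed with the E-box in capitals, at chr10:31318167-31318416 on the plus strand.
ZEB1 upstream: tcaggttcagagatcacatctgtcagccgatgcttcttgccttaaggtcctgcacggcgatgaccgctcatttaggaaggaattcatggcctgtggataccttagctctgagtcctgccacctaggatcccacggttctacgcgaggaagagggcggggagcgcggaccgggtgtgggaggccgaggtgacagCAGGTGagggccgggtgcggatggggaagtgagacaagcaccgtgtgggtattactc
Of 35116 promoters of this length in the table, 20.6% hold the E-box, so its presence is common. The windows listed for ZEB2, VIM, FN1 and KLF4 do not contain it. The GRHL motif AACCNGTT, searched on both strands, was in 0 of the 11 windows of the 5 genes and in 1.73% of all promoters. The table has no entry for the other 5 genes.

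ZEB2 (chromosome 2, 144364364 to 144521057, minus strand), the paralog of ZEB1, was hardly detected. It had 20, 13 and 2 counts in shCtrl and 7, 0 and 0 in shRBM39. The groups overlap, since the third control lay below the first depleted library. ZEB2 did not reach the minimum of counts for the main test. With no filter on low counts, edgeR gave a log2 fold change of -2.12 with an adjusted p of 0.000424 over 33685 genes, a value that rests on 35 and 7 reads in the groups. ZEB2 also entered the edgeR test when a library was left out. It was called lower without shCtrl replicate 3 (adjusted p 0.00023) or shRBM39 replicate 1 (0.000177), and not called without shRBM39 replicate 2 (0.0712) or 3 (0.0562).

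SNAI1 and SNAI2 were expressed at a low level that moved little. SNAI1 (chromosome 20, 49982980 to 49988886, plus strand) had 9.76, 8.47 and 9.19 CPM in shCtrl and 9.99, 9.86 and 9.90 CPM in shRBM39. The groups do not touch, but the log2 fold change was 0.12 (SE 0.09, 95% interval -0.07 to 0.31, adjusted p 0.266 in edgeR). When libraries were scaled by their totals alone, the SNAI1 log2 fold change was -0.0039. SNAI2 (chromosome 8, 48917598 to 48921740, minus strand) is the Slug gene whose promoter the study examined. It had 5.45, 4.84 and 4.82 CPM in shCtrl and 4.84, 7.14 and 5.77 CPM in shRBM39. The depleted libraries spread widely and their lowest value lies within the control range. SNAI2 had a log2 fold change of 0.22 (SE 0.13, 95% interval -0.04 to 0.49, adjusted p 0.143 in edgeR). In that fit alone, the interval leaves out a fall of SNAI2 mRNA beyond 0.04 on the log2 scale. When libraries were scaled by their totals alone, SNAI2 stood at 0.10 (SE 0.13), so the bound moves with the scaling. Leaving out shRBM39 replicate 1 raised SNAI2 to 0.36 and past the threshold (adjusted p 0.0245 in edgeR). Leaving out shRBM39 replicate 2 brought it to 0.08 (SE 0.14). With 95 to 123 counts a library, SNAI2 was among the shallowest of the genes tested here. In SW620 cells, the study reported lower Slug, Zeb1, Twist1, N-cadherin and Vimentin protein and higher E-cadherin protein after RBM39 knockdown. Those blots measured protein in another line, while the values here are mRNA of SW480 cells.

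**Figure D1:**
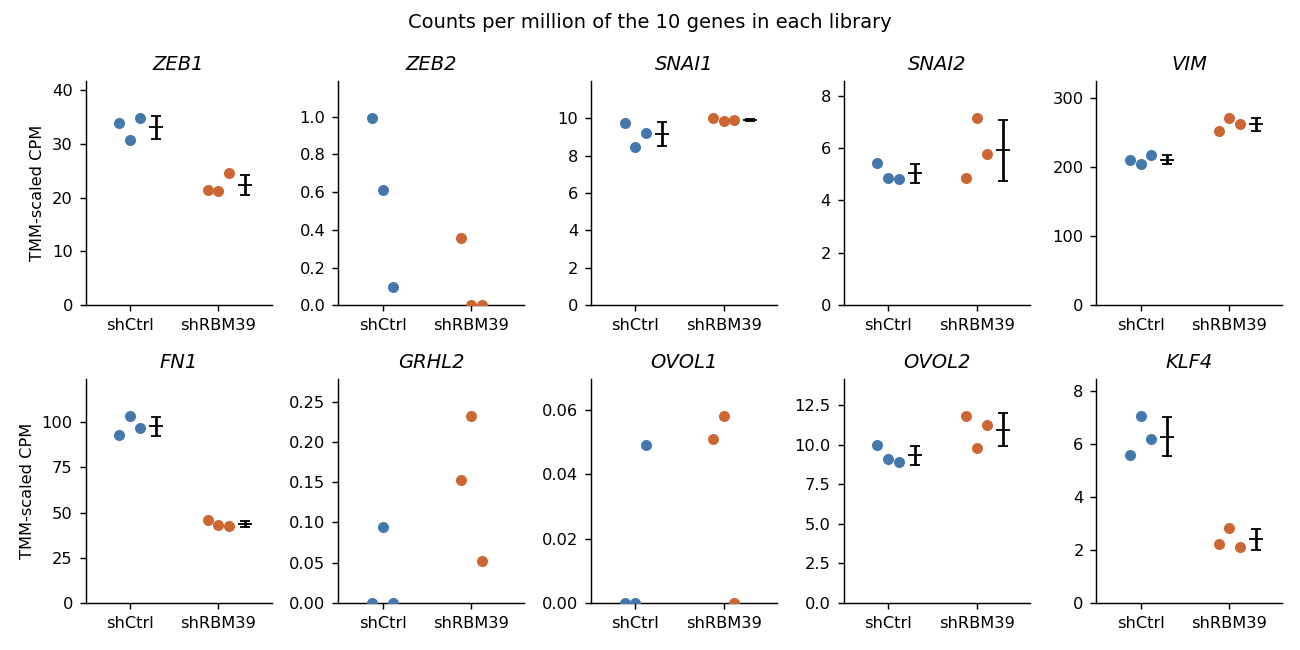
TMM-scaled CPM (vertical axes, each from 0) of the 10 genes in the 3 shCtrl and 3 shRBM39 libraries, with the mean and SD beside the points where the gene was tested. FN1, KLF4 and ZEB1 lie lower and VIM higher in shRBM39 without overlap, SNAI2 and OVOL2 overlap, and ZEB2, GRHL2 and OVOL1 stay under 1 CPM.

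The mesenchymal markers went in opposite directions. VIM (chromosome 10, 17228241 to 17237593, plus strand) had 209.9, 204 and 217 CPM in shCtrl and 252.2, 269.9 and 261.3 CPM in shRBM39, with every depleted library above every control. Its log2 fold change was 0.31 (SE 0.04, 95% interval 0.23 to 0.39, adjusted p 1.16e-08 in edgeR). VIM shares 641 bases of exon with VIM-AS1 and 619 with RP11-124N14.3, both on the other strand and both well covered, at 1481 to 1700 and 2023 to 2469 counts a library. Counts assigned to VIM-AS1 rose with those of VIM, by 0.27 on the log2 scale (adjusted p 3e-06 in edgeR). As with ZEB1, reads of these overlapping genes cannot be told apart without the strand setting. Summing VIM with both antisense genes gave 0.30 (adjusted p 1.82e-08).

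FN1 (chromosome 2, 215360440 to 215436073, minus strand) had the smallest p of the 10. It had 92.9, 103.4 and 97.0 CPM in shCtrl and 45.7, 43.0 and 42.8 CPM in shRBM39. The depleted libraries sit close together, far below the lowest control. Fibronectin mRNA was 2.23-fold lower, with a log2 fold change of -1.16 (SE 0.05, 95% interval -1.25 to -1.06, adjusted p 1.29e-20 in edgeR). FN1 and KLF4 are 2 of the 759 genes called lower by at least 2-fold, which make up 4.16% of the genes tested.

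**Figure D2:**
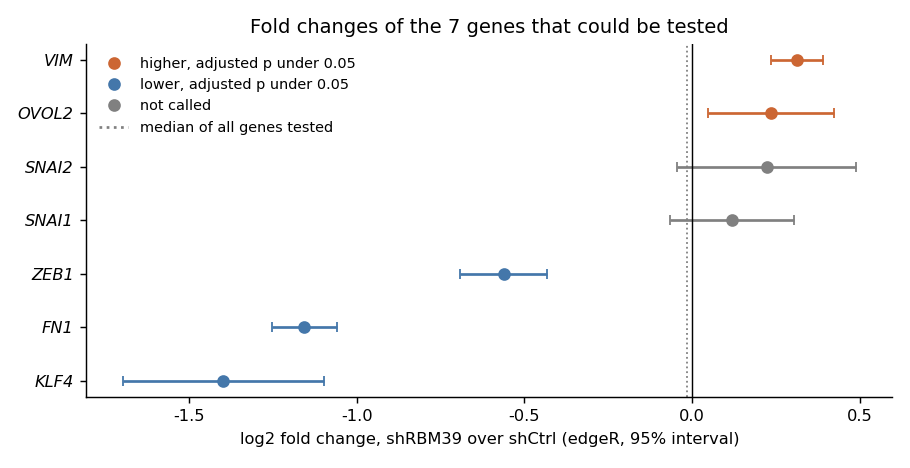
Log2 fold change of shRBM39 over shCtrl (horizontal axis) with its 95% interval from the edgeR fit, for the 7 genes tested, with the median of all tested genes as a dotted line. KLF4 at -1.40, FN1 at -1.16 and ZEB1 at -0.56 lie left of 0, VIM at 0.31 and OVOL2 at 0.24 lie right of it, and the intervals of SNAI1 and SNAI2 cross 0.

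FN1 was also the single gene of the 10 with a splicing record. The deposited rMATS table lists 1582 records of 1198 gene symbols, each with a mean difference in inclusion level of at least 0.1, and only FN1 appears among the 10, with 1 skipped exon. Events of the other 9 genes under that difference were not analysed here. The exon is number 33 of 46 in the canonical FN1 transcript, at chr2:215380811-215381080 on the minus strand. It is 270 bases long, is coding throughout, and adds 90 codons without a change of frame. It is the alternative exon of fibronectin known as extra domain A, which is skipped in plasma fibronectin and included in cellular fibronectin. The exon is printed because it is the sequence the record turns on, with 15 intronic bases on each side and its one run of the purine-rich letters GAAGAAGA in capitals, a kind of sequence that SR proteins are known to bind in exons.
FN1 intron before exon 33: taatttgcctaacag
FN1 exon 33: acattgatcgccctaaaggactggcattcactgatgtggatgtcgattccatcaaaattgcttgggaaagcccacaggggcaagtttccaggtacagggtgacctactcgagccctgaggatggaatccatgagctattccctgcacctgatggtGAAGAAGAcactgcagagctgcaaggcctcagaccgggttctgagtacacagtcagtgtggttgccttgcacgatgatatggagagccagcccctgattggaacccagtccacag
FN1 intron after exon 33: gtatatggttaattg

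The table compares a group 1 with a group 2 and does not say which is the knockdown, so the levels keep these names and no direction is drawn from them. The record holds 135 reads in group 1 and 384 in group 2. FN1 counts summed to 2467 in shRBM39 and 6046 in shCtrl. Whether read numbers give the key was not tested. In group 1 the exon was covered by 50, 37 and 37 inclusion reads and by 3, 4 and 4 skipping reads, with listed inclusion levels of 0.844, 0.75 and 0.75. In group 2 it was covered by 124, 144 and 105 inclusion reads and by 3, 2 and 6 skipping reads, with listed levels of 0.931, 0.959 and 0.85. Inclusion was the main form in all 6 values, and the groups come as near as 0.844 and 0.85. The authors' mean levels differ by -0.132, group 1 minus group 2. The record was listed because of its difference, so it is a description with no test. Skipping reads number 11 in each group against 124 and 373 inclusion reads, so the difference rests on few skipping reads. Without the authors' correction for the length that each form offers to reads, the difference shrank to -0.0535.

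**Figure D3:**
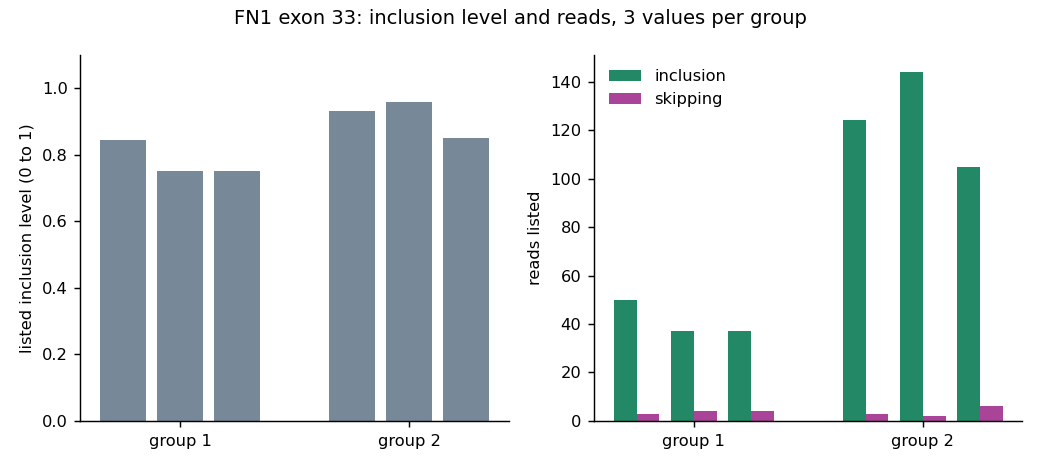
Left, the listed inclusion level of FN1 exon 33 (0 to 1), and right, the inclusion and skipping reads behind it, as 3 values for each of group 1 and group 2. Levels run from 0.75 to 0.844 in group 1 and from 0.85 to 0.959 in group 2, and skipping reads stay between 2 and 6.

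On the epithelial side, KLF4 had the lowest log2 fold change of the 7 genes tested among the 10. KLF4, a zinc finger factor of differentiated gut epithelium (chromosome 9, 107484852 to 107490482, minus strand), had 5.60, 7.06 and 6.19 CPM in shCtrl and 2.24, 2.84 and 2.11 CPM in shRBM39. All depleted libraries lay below all controls. It was 2.64-fold lower, with a log2 fold change of -1.40 (SE 0.15, 95% interval -1.70 to -1.10, adjusted p 4.35e-10 in edgeR). KLF4 has the widest interval of the 3 genes that fell, on 41 to 150 counts a library.

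OVOL2 (chromosome 20, 17956979 to 18059188, minus strand), a repressor of ZEB1 in epithelia, had 10.0, 9.13 and 8.90 CPM in shCtrl and 11.8, 9.80 and 11.2 CPM in shRBM39. The second depleted library lies within the control range. OVOL2 passed the test at a log2 fold change of 0.24 (SE 0.09, 95% interval 0.05 to 0.42, adjusted p 0.0284 in edgeR), and the call was lost in 9 of 17 alternatives. With DESeq2 the same fold change had an adjusted p of 0.0971, and without shRBM39 replicate 1 the value was 0.18 (adjusted p 0.138). OVOL2 shares 59 bases of exon with SNX5 on the same strand.

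GRHL2 and OVOL1 were at the edge of detection. GRHL2 (chromosome 8, 101492439 to 101669726, plus strand), a grainyhead factor that activates CDH1 in many epithelia, had 0, 2 and 0 counts in shCtrl and 3, 4 and 1 in shRBM39. OVOL1 (chromosome 11, 65787063 to 65797214, plus strand) had 0, 0 and 1 counts in shCtrl and 1, 1 and 0 in shRBM39. Neither was tested, and no fold is given because both groups lie around the floor of 3 counts. A difference in GRHL2 or OVOL1 mRNA was not detectable at this depth.

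Per length, the 10 genes covered a wide range, which is given in RPKM from the counts and merged exon lengths. In shCtrl, VIM led at 42.6 ± 1.33 RPKM, followed by FN1 at 5.89 ± 0.37, SNAI1 at 5.66 ± 0.35, OVOL2 at 4.48 ± 0.24, ZEB1 at 3.99 ± 0.24, SNAI2 at 2.30 ± 0.14 and KLF4 at 1.79 ± 0.22 RPKM (SD, n = 3). FN1 and SNAI1 overlap in that order, and the other neighbours do not. ZEB2, GRHL2 and OVOL1 averaged 0.025, 0.0054 and 0.0045 RPKM.

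In shRBM39 the order changed below VIM. VIM stood at 48.5 ± 1.52 RPKM, SNAI1 at 5.64 ± 0.05, OVOL2 at 4.83 ± 0.47, SNAI2 at 2.48 ± 0.48, ZEB1 at 2.48 ± 0.21, FN1 at 2.43 ± 0.09 and KLF4 at 0.63 ± 0.10 RPKM (SD, n = 3). With these lengths FN1 stood second in shCtrl and sixth in shRBM39, where it overlapped SNAI2 and ZEB1. With the length of the canonical transcript in place of merged exons (8390 in place of 17315 bases for FN1, 2154 in place of 5158 for VIM), shCtrl levels were 101.9 for VIM, 12.2 for FN1, 6.16 for OVOL2, 5.81 for ZEB1 and 5.59 for SNAI1. The shRBM39 levels were then 116.2 for VIM, 6.63 for OVOL2, 5.57 for SNAI1, 5.00 for FN1, 3.61 for ZEB1 and 2.60 for SNAI2. With that length FN1 stood above ZEB1 and SNAI2 in shRBM39, so the places of FN1, OVOL2, ZEB1 and SNAI1 depend on the length used.

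**Figure D4:**
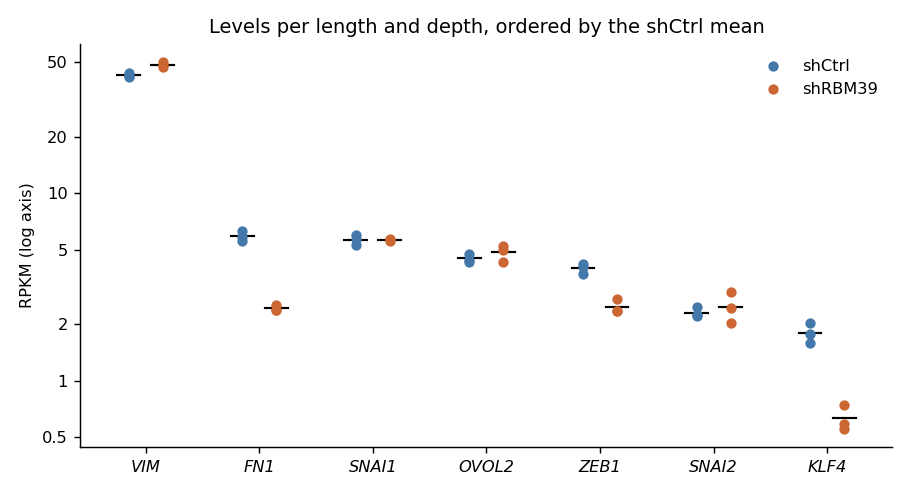
RPKM on a log axis for the 7 tested genes, ordered by their shCtrl mean, with a point for each library and a line at each group's mean. VIM lies near 42.6 and 48.5 RPKM, FN1 drops from 5.89 to 2.43 RPKM and KLF4 from 1.79 to 0.63 RPKM, while SNAI1 stays at 5.66 and 5.64 RPKM.

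The other genes of the program were read from lists grouped by role, with 3 genes named at each end of a list, and further ones named after their values were seen. Of 20 other mesenchymal genes, 8 were tested, of which 4 were higher and 2 lower, where 29.2% of all genes tested were higher and 30.0% lower. Their median log2 fold change was 0.37, against -0.01 over all genes tested. ACTA2, encoding smooth muscle actin, rose by 1.15 (adjusted p 6.13e-07), the matrix gene TNC by 0.86 (adjusted p 7.1e-17), COL1A1 by 0.81 (adjusted p 7.98e-08) and S100A4 by 0.61 (adjusted p 4.14e-14). SNAI3, the third Snail gene, was lower, at -1.16 on the log2 scale (adjusted p 2.12e-05, edgeR). TWIST2 and GSC had 0 counts in all libraries, which allows up to 0.174 CPM. TWIST1 and CDH2, the genes of Twist1 and N-cadherin, had 1 read each in a single library, so a switch between the cadherins could not be followed in this RNA.

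Of 24 epithelial genes tested out of 25, 14 were lower and 4 higher, where 30.0% of all genes tested were lower and 29.2% higher. Their median was -0.20. CDH1 had 89.7, 89.2 and 88.6 CPM in shCtrl and 68.9, 69.9 and 66.0 CPM in shRBM39, a log2 fold change of -0.39 (SE 0.04, adjusted p 1.02e-09 in edgeR). Its libraries do not overlap, and it fell alongside ZEB1, which represses it in other settings. The tight junction genes TJP3, CLDN7 and CLDN3 fell, with log2 fold changes of -1.87, -1.68 and -1.02 (adjusted p 1.79e-16, 8.77e-11 and 1.31e-09). OCLN, also of tight junctions, fell, at -0.54 (adjusted p 8.22e-06 in edgeR). CLDN4 and MARVELD2, of the same junctions, were not called, at -0.13 and -0.18 (adjusted p 0.0782 and 0.0984 in edgeR). The placental cadherin gene CDH3 and the keratin genes KRT8 and KRT18 rose, by 0.68, 0.43 and 0.24 (adjusted p 4.96e-13, 2.88e-12 and 1.19e-06). MARVELD3, another tight junction gene, rose as well, by 0.23 (adjusted p 0.000143 in edgeR). EPCAM, at 619.7, 575.8 and 576 CPM in shCtrl and 561.5, 586.6 and 644.4 CPM in shRBM39, was not called.

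**Figure D5:**
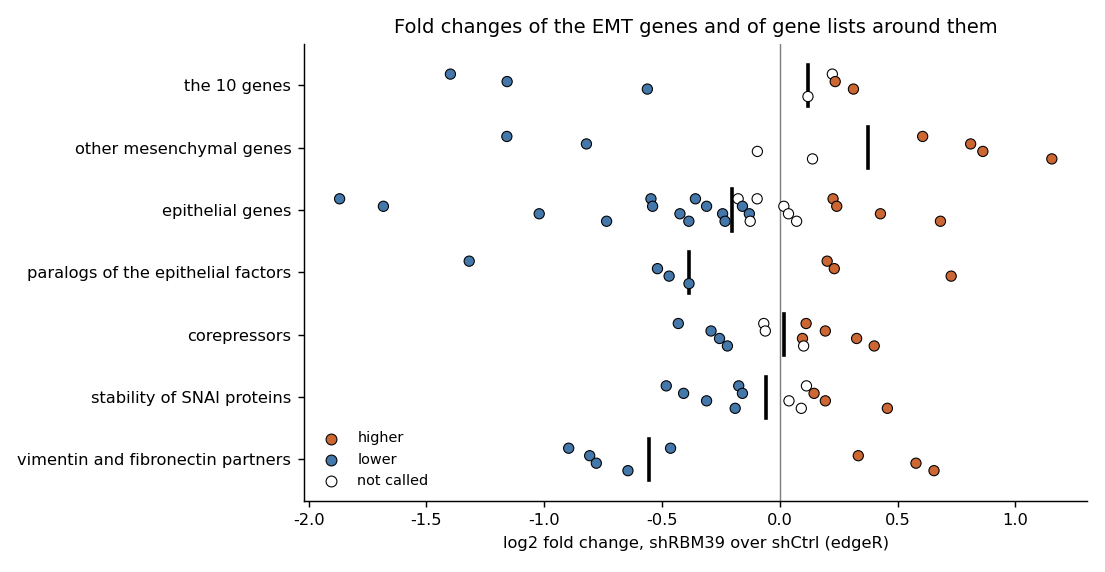
Log2 fold change of shRBM39 over shCtrl (horizontal axis) for each tested gene of the 10 and of 6 lists around them, coloured by call, with a bar at each list's median. Epithelial genes reach from -1.87 (TJP3) to 0.68 (CDH3) and other mesenchymal genes from -1.16 (SNAI3) to 1.15 (ACTA2).

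All 8 genes on the list of vimentin and fibronectin partners were called, against 59.2% of all genes tested, with 3 higher, 5 lower and a median of -0.55. ITGA5 and ITGAV, integrin chains that bind fibronectin, were lower, at -0.90 and -0.81 (adjusted p 1.64e-15 and 1.01e-08). ITGB1, their common partner, was lower, at -0.46 (adjusted p 4.61e-11), as was SDC4, a co-receptor, at -0.64 (adjusted p 2.45e-08). NES and SYNM, which encode nestin and synemin and form filaments with vimentin, rose by 0.58 and 0.65 (adjusted p 6.2e-15 and 6.06e-06). The filament linker gene PLEC was lower, at -0.78 (adjusted p 3.35e-18), and TGM2, a transglutaminase that binds fibronectin, rose by 0.33 (adjusted p 0.0055, edgeR). The TGM2 call was lost when libraries were scaled by totals alone, and it stood at 0.19 without shRBM39 replicate 2.

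Of 10 relatives of the epithelial factors, 7 were tested, and GRHL3, OVOL3 and KLF9 were too low. OVOL3 had 0 counts in all shCtrl libraries and 2 in each shRBM39 library. GRHL1 was at 11.5 ± 0.66 CPM in shCtrl and 13.2 ± 0.31 in shRBM39 (SD, n = 3, edgeR log2 fold change 0.20, adjusted p 0.0332). Of the 7 tested, 3 were higher and 4 lower, against 29.2% and 30.0% of all genes tested, with a median of -0.39. KLF2 and KLF6 rose by 0.73 and 0.23 (adjusted p 0.000557 and 0.0141). KLF11, KLF5 and KLF3 fell, at -1.32, -0.52 and -0.47 (adjusted p 7.71e-10, 8.43e-14 and 2.06e-08). The KLF6 and GRHL1 calls were lost under DESeq2 and when libraries were scaled by totals alone. KLF6 also lost its call without shCtrl replicate 3 (0.18) or shRBM39 replicate 2 (0.19), and GRHL1 without shCtrl replicate 1 or 3 or shRBM39 replicate 1 or 3 (0.16 to 0.21).

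The corepressors that ZEB and SNAI factors recruit were divided, with 5 of 12 higher and 4 lower, against 29.2% and 30.0% of all genes tested, and a median of 0.02. SUZ12 and KDM1A rose by 0.40 and 0.33 and HDAC1 by 0.19 (adjusted p 5.23e-09, 2.99e-09 and 3.39e-05). AJUBA, EZH2 and RCOR1 fell, at -0.43, -0.29 and -0.26 (adjusted p 1.68e-08, 3.62e-08 and 6.9e-05). CTBP1 and CTBP2, which bind ZEB1, were not called.

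SNAI1 and SNAI2 are short-lived proteins, and mRNA levels do not report their amount. Of 12 tested genes that act on the stability of SNAI proteins, 3 were higher and 6 lower, against 29.2% and 30.0% of all genes tested, with a median of -0.06. DESeq2 called 2 higher and 3 lower, and scaling by library totals alone gave 1 higher and 6 lower. BTRC and FBXL14, which encode F-box proteins that mark Snail for degradation, fell, at -0.48 and -0.31 (adjusted p 1.13e-07 and 1.29e-05). The deubiquitinase gene PSMD14 rose by 0.46 (adjusted p 9.41e-11), while USP27X, also a deubiquitinase, fell, at -0.41 (adjusted p 0.00766). The kinase genes PAK1 and GSK3B rose by 0.19 and 0.15 (adjusted p 0.000727 and 0.0236). When libraries were scaled by totals alone, PAK1, GSK3B and HDAC1 were no longer called. USP27X and GSK3B were not called by DESeq2, and GSK3B lost its call at 0.12 to 0.13 without shCtrl replicate 1 or 2 or shRBM39 replicate 1.

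The hosts of the miR-200 family, which targets ZEB1 and ZEB2 mRNA, were barely covered. Of 12 such loci and antisense genes, 6 were tested, with 2 higher and 1 lower, against 29.2% and 30.0% of all genes tested, and a median of -0.07. MIR429, in the cluster with miR-200a and miR-200b, rose from 1.16 ± 0.27 to 1.83 ± 0.14 CPM (SD, n = 3, adjusted p 0.0145 in edgeR). DESeq2 did not call MIR429, nor did the edgeR fit corrected for GC content and length (0.50, adjusted p 0.06). The other loci of that cluster were too low to be tested. MIR200A had 7, 6 and 7 counts in shCtrl and 0, 1 and 1 in shRBM39, and MIR200B had 3, 6 and 6 in shCtrl and 1, 3 and 1 in shRBM39, so both had most of their counts in the controls. The log2 fold change of MIR429 went from 0.65 to 0.53 without shCtrl replicate 1 and to 0.59 without shRBM39 replicate 1, and neither was called. The host of miR-200c and miR-141, listed as U47924.27, had 24, 25 and 24 counts in shCtrl and 26, 30 and 33 in shRBM39 and was not called. OVOL1-AS1 had 0 counts in all libraries. These are reads of long transcripts over the loci, and mature miRNAs were not measured.

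Splicing records were also listed for 7 genes on these lists, with 10 records in all. ESRP1, an epithelial splicing regulator, had 1 skipped exon at mean levels of 0.423 in group 1 and 0.691 in group 2, as the authors' means. That record holds 83 reads in group 1 and 149 in group 2, with 16 behind the shallowest value. ESRP1 also had a record of an alternative splice site, at 0.65 and 0.777. CTBP2 had mutually exclusive exons at 0.51 and 0.625, and SPINT1 a skipped exon at 0.766 and 0.887. PLEC, the filament linker gene, had a skipped exon of 3381 bases at 0.72 in group 1 and 0.352 in group 2. That is the other direction from FN1. Skipping reads of PLEC numbered 13 in group 1 and 103 in group 2. Without the correction for length, its levels were 0.9815 to 0.9894 in group 1 and 0.9271 to 0.946 in group 2. BTRC had the same exon in records of opposite direction, with differences of 0.199 and -0.145, group 1 minus group 2. As with FN1, the key to the groups is not given.

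Markers of other cell types were low, and some moved with the groups. The 7 fibroblast markers summed to 11.6 to 12.8 CPM in shCtrl and 16.6 to 17.4 CPM in shRBM39, with DCN at 1 count in a single library. Endothelial markers summed to 3.52 to 4.57 and 6.44 to 8.05 CPM, with KDR at 0, and leukocyte markers to 1.13 to 2.08 and 2.32 to 3.11 CPM, with PTPRC and TYROBP at 0. Of 4 fibroblast markers tested, COL1A1 and THY1 were called higher, and LUM and PDGFRB were not called. The 2 endothelial markers tested, PECAM1 and VWF, were called higher, as was LYZ, the 1 leukocyte marker tested. Of all genes tested, 29.2% were called higher. A part of other cell types in the values of VIM, TNC and COL1A1 was not tested.

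Scaling shifts all of these values together. The median of all genes tested was -0.01 on the log2 scale in the main fit and -0.14 when libraries were scaled by totals alone, and the share of calls that were higher went from 49.4% to 33.9%. The corepressor median turned from 0.02 to -0.11 with that scaling, and its calls from 5 higher and 4 lower to 2 higher and 6 lower. FN1, KLF4 and ZEB1 stayed lower and VIM higher in all 17 alternatives run. FN1 ranged from -1.28 to -1.01, KLF4 from -1.52 to -0.78, ZEB1 from -0.69 to -0.48 and VIM from 0.18 to 0.34.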

How the data were processed

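mRNA of SW480 cells was sequenced from stranded libraries with unique identifiers, 3 shCtrl and 3 shRBM39. Raw counts for each gene symbol and RPKM values were deposited by the authors. Their processing notes name Trimmomatic 0.36, STAR 2.5.3a, featureCounts (Subread 1.5.1), edgeR 3.12.1 and GRCh38, without roles or settings. Whether identifiers were collapsed and whether strand was used in counting is not given in the sources used here. Columns named NC were taken as shCtrl because no other control exists in the series. The authors also deposited rMATS records with inclusion and skipping read counts and inclusion levels as fractions (version not stated). Their p-value, FDR and group difference columns were not used.

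The RPKM values were recomputed from the counts and merged exon lengths. The count test was the quasi-likelihood test of edgeR 4.0.16 in R 4.3.3, after filterByExpr at a minimum of 10 and with TMM factors, modelling group alone, at a Benjamini-Hochberg adjusted p of 0.05. Alternatives used DESeq2 1.42.0, limma 3.58.1 on log2(RPKM + 1) and log2(RPKM + 0.1), other scalings and filters, a correction for GC content and length, a replicate block, each replicate left out, and sums with antisense genes, the last added after seeing the data. Fits were checked on simulated counts. Replicates differed by more than sampling noise (chi-square per degree of freedom 2.01 to 3.9), and the biological coefficient of variation was 0.035. Loci are from GENCODE v44 and promoters from RefSeq.

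The 10 genes and the lists were chosen with earlier results of these data known. Named from each list are the 3 highest and 3 lowest log2 fold changes past the threshold, genes at 0, and CDH1, CDH2, TWIST1 and RBM39. No protein sequences were compared. A gene that this rule would name is not reported here.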

Additional observations from a re-analysis of the deposited data

How the results depend on the processing

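Across the alternatives the 3 genes called lower (FN1, KLF4, ZEB1) stayed 3, except that ZEB2 made it 4 with no filter on low counts, without shCtrl replicate 3 and without shRBM39 replicate 1, when it entered the test. The number called higher was 1, not 2, under DESeq2, upper-quartile scaling, library totals alone, both RPKM fits and an adjusted p under 0.01. It was 1 to 2 when a replicate was left out. Where it was 1, OVOL2 had lost its call. Without shRBM39 replicate 1 OVOL2 also lost its call, but SNAI2 passed the threshold (adjusted p 0.0245 in edgeR), so the number stayed 2. The cause was not tested. SNAI1, never called, changed sign under library totals alone (-0.0039), log2(RPKM + 1) (-0.003) and log2(RPKM + 0.1) (-0.0033). Genes called in all numbered 9026 (at an adjusted p under 0.01) to 11149, and 10138 to 10263 with 1 replicate left out. For FN1 exon 33, levels without the correction for effective length differed by -0.0535, and leaving out 1 value gave -0.1637 to -0.1092. Same-numbered samples did not deviate together (correlations 0.006, -0.028 and 0). With 3 libraries in each group, these values cannot tell whether same-numbered samples were prepared together. A replicate block gave 10810 called genes, with 2 of the 10 higher and 3 lower. Libraries of 18042924 to 20428901 counts leave GRHL2, OVOL1 and ZEB2 too shallow to compare.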
